A study of Mus musculus with 6 samples.

Results

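The genes described here are those of transforming growth factor beta (TGF-beta) signalling: the ligands *Tgfb1*, *Tgfb2* and *Tgfb3*, the receptors *Tgfbr1* and *Tgfbr2*, the latent TGF-beta binding proteins *Ltbp1*, *Ltbp2* and *Ltbp3*, and the target gene *Smad7*. They were chosen by gene symbol, and all 9 are among the 41709 genes of the expression table. RNA-seq was done on 6 tibialis anterior (TA) muscles of mice. Of these, 3 were electroporated with a plasmid for wild-type Lrpprc (LrpprcWT) and 3 with a plasmid for LrpprcP27A, a variant in which a proline that can be hydroxylated is replaced by alanine. Lrpprc is a leucine-rich pentatricopeptide repeat protein that binds mitochondrial messenger RNAs. According to the methods of the study, both proteins carry a Flag tag and were encoded on pCMV6 plasmids, the mice were male C57BL/6J, and the 2 plasmids went into contralateral TA muscles. The study used young and old mice, and the sources used here do not state outright from which the RNA-seq muscles came. Both groups were electroporated and both kept their endogenous *Lrpprc*, and RNA came from the whole muscle and therefore from electroporated and other cells together. The comparison asks which transcripts differ between muscles given the plasmid for the variant and muscles given that for the wild-type protein.

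TGF-beta ligands are secreted in a latent form, in which the propeptide stays wrapped around the mature growth factor. Latent TGF-beta binding proteins tie this complex to fibrillin in the extracellular matrix, and integrins, thrombospondin or proteases release it. The free ligand binds the type II receptor (*Tgfbr2*), which recruits and phosphorylates the type I receptor (*Tgfbr1*), and the latter phosphorylates Smad2 and Smad3, which enter the nucleus with Smad4. In skeletal muscle the pathway is known for driving matrix production by fibroblasts and fibro-adipogenic progenitors and for restraining myoblast differentiation.

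The upstream sequences of *Tgfb1* and *Ltbp2* are shown because these are the ligand and the binding protein whose means differ most between the groups in proportion. They were read from RefSeq promoter sequences (table build GRCm38.p6) and placed by an exact match in GRCm39. Each runs 5′ to 3′ on the strand of its gene, from 250 to 51 bases before the RefSeq start, and lies outside the GENCODE gene. Capitals mark the GC box GGGCGG, which Sp1 binds, and the SMAD box CAGAC, each searched on both strands, so that CCGCCC and GTCTG are their reverse complements. The *Tgfb1* window is chr7:25386177-25386376 (+ strand) and the *Ltbp2* window is chr12:84923316-84923515 (− strand).
Tgfb1: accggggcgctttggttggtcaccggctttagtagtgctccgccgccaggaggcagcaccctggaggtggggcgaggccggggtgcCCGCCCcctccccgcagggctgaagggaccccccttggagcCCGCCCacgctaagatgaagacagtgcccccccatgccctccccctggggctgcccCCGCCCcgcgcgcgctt
Ltbp2: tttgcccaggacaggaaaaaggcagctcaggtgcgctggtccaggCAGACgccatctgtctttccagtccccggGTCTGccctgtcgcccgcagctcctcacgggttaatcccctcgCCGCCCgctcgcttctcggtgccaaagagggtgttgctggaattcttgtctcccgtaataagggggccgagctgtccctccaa

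The *Tgfb1* window held 3 GC boxes, at 164, 123 and 67 bases before the start, and no CAGAC. It was rich in G and C, at 74% of its bases. The *Ltbp2* window held 2 CAGAC matches, at 205 and 176 bases before the start, and 1 GC box at 133 bases, with 62% G and C. Sequences of 7 of the 9 genes were used, with 9 windows between them. Chromosome 18, where *Smad7* lies, was left out of this search. Over all 32851 RefSeq windows of the same 200 bases, 24.6% held GGGCGG and 35.8% held CAGAC, so that both motifs are common. The motifs were chosen after the expression values had been seen, and a match describes letters in a window, not a bound site.

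Transcripts of the TGF-beta genes were on balance less abundant in LrpprcP27A muscles. On the deposited scale of TPM, the abundance of a transcript per length and relative to its library, every LrpprcP27A muscle lay below every LrpprcWT muscle for 7 of the 9 genes: the 3 ligands, *Tgfbr2* and the 3 binding proteins. Among the 8 genes with a mean of at least 1 TPM, which were tested, this held for 6, and it also held for 47.6% of all 11611 genes tested. By limma with Benjamini-Hochberg adjustment over those 11611 genes, 5 of the 8 were lower in LrpprcP27A at an adjusted p under 0.05 (*Tgfb1*, *Tgfb3*, *Tgfbr2*, *Ltbp1* and *Ltbp3*) and 0 were higher. Of all tested genes, 23.3% were lower and 1.34% higher. Without adjustment the counts at p under 0.05 were also 5 and 0, against 44.2% of all tested genes lower. By the Kruskal-Wallis test 0 passed adjustment, and 6 were lower without it, against 47.6%. With the replicate number as a block, 5 of the 8 were lower at an adjusted p under 0.05, against 48.4% of all tested genes. The median log2 fold change of TPM + 1 was −0.47 over the 8 genes and −0.32 over all tested genes.

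That shift of all genes moves with how the libraries are scaled. After median-of-ratios scaling, which centres the bulk of the genes, the median over all tested genes was −0.0047 and that of the 8 TGF-beta genes −0.11. The calls then numbered 1 (*Tgfb1*), against 6.03% of all tested genes called lower and 5.25% higher, or 3 (*Tgfb1*, *Tgfbr2* and *Ltbp1*) with the replicate block as well, against 15.8%. On this scale the groups did not overlap for 5 of the 9 genes, *Tgfb1*, *Tgfbr2*, *Ltbp1*, *Ltbp2* and *Ltbp3*. Among the tested genes these were 4 of 8, and LrpprcP27A lay below without overlap in 19.0% of all tested genes. The decreases of *Tgfb1*, *Tgfbr2* and *Ltbp1* were larger than the shift of all genes, by 0.79, 0.61 and 0.31 on the log2 scale. The values of *Tgfb2* and *Tgfbr1* were of about its size, and that of *Smad7* was nearer to 0. On the deposited scale the count of 5 changed with each library left out. It was 0 without LrpprcWT replicate 1, LrpprcWT replicate 3, LrpprcP27A replicate 2 or LrpprcP27A replicate 3, where 2.51%, 0.129%, 4.34% and 3.79% of all tested genes were called lower. It was 2 without LrpprcP27A replicate 1 (14.5% of all tested genes) and 6 without LrpprcWT replicate 2 (59.5%). At an unadjusted p under 0.05, 7 of the 8 were lower without LrpprcWT replicate 2, against 64.5% of all tested genes, and 5 without each of the others, against 27.6% to 35.3%.

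**Figure D1:**
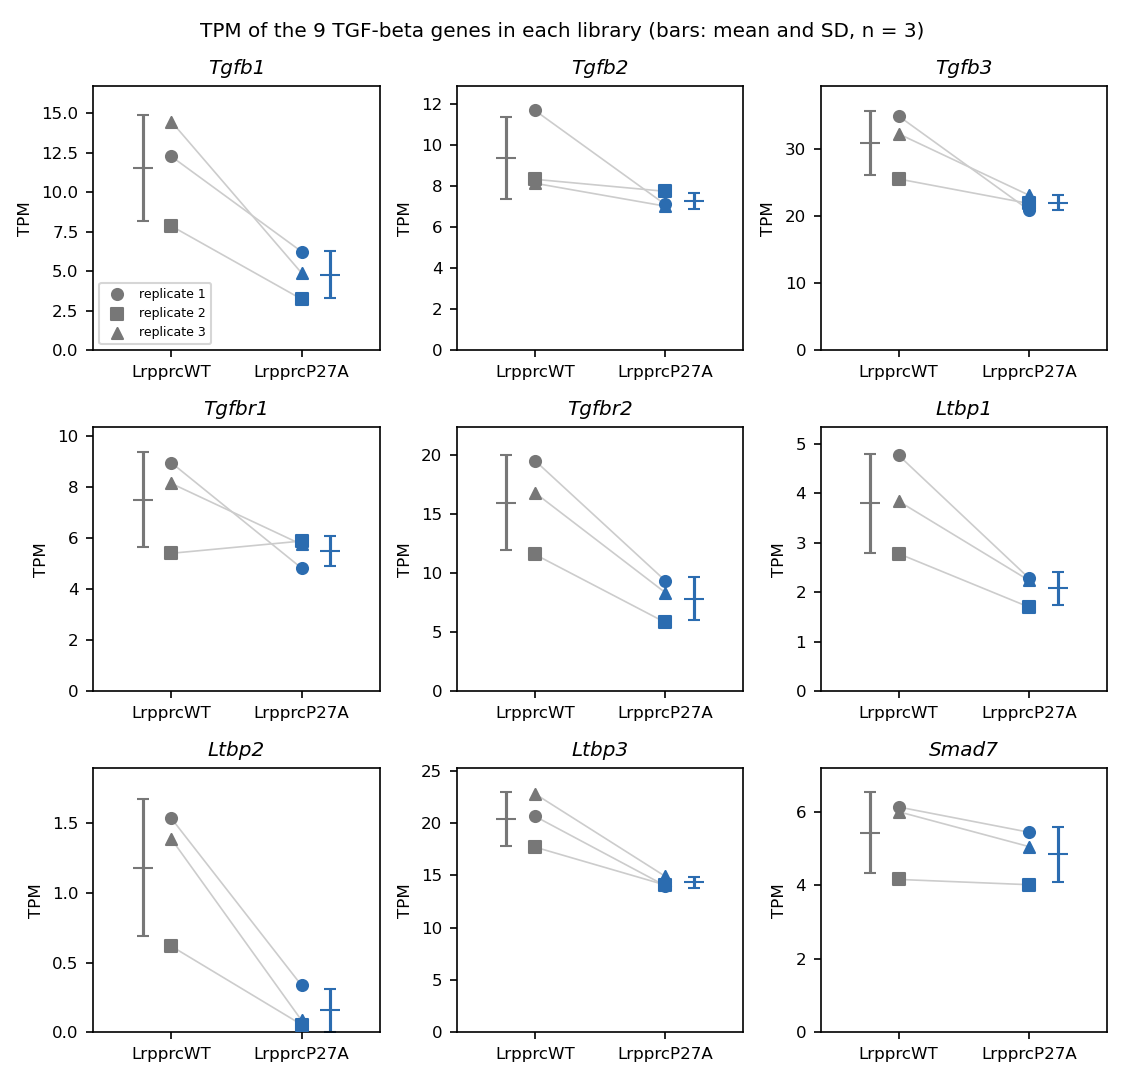
Expression of the 9 TGF-beta genes in TPM (vertical axis, from 0) in each of the 3 LrpprcWT (grey) and 3 LrpprcP27A (blue) muscles; lines join the same replicate number, and bars give the mean and SD. On this deposited scale the groups overlap only for Tgfbr1 and Smad7.

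*Tgfb1*, the ligand best known for fibrosis, lies at chr7:25386390-25404506 (+ strand, GRCm39). It was at 12.3, 7.87 and 14.5 TPM in LrpprcWT replicates 1 to 3 and at 6.25, 3.25 and 4.90 TPM in LrpprcP27A. The lowest LrpprcWT muscle was above the highest LrpprcP27A muscle. The mean fell from 11.5 ± 3.36 to 4.80 ± 1.51 TPM (SD, n = 3 each), or by 58.4%. The log2 fold change of TPM + 1 was −1.11 (SE 0.251, limma adjusted p = 0.0246) as deposited and −0.78 (adjusted p = 0.0499) on the median-of-ratios scale. It was lower in all 3 pairs of muscles, as were 70.1% of all tested genes. The exact permutation test of 3 against 3 gave p = 0.1, the smallest it allows, for *Tgfb1* and for each of the other genes whose groups did not overlap.

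*Tgfb2* (chr1:186354985-186438294, − strand) encodes a ligand that needs betaglycan for strong binding to the type II receptor. Its levels were 11.7, 8.33 and 8.14 TPM in LrpprcWT and 7.11, 7.75 and 7.03 TPM in LrpprcP27A. The gap between the groups was small beside the spread of LrpprcWT, where replicate 1 stood above the other two. The log2 fold change of −0.31 (SE 0.157, limma adjusted p = 0.148) did not pass the test, and it was 0.026 after median-of-ratios scaling.

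*Tgfb3* (chr12:86102756-86126301, − strand), the third ligand, had the highest level per length of the 9 genes in both groups. It was at 34.8, 25.5 and 32.2 TPM in LrpprcWT and at 20.9, 21.9 and 23.1 TPM in LrpprcP27A. The LrpprcP27A muscles lay close together and below every LrpprcWT muscle. The mean fell by 28.9%, with a log2 fold change of −0.46 (SE 0.137, limma adjusted p = 0.0424). After median-of-ratios scaling the change was −0.10 (adjusted p = 0.419) and the groups overlapped.

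Summed over the 3 ligand genes, the level was 58.8, 41.7 and 54.8 TPM in LrpprcWT and 34.2, 32.8 and 35.0 TPM in LrpprcP27A. *Tgfb1* made up 20.9%, 18.9% and 26.4% of this sum in LrpprcWT and 18.3%, 9.88% and 14.0% in LrpprcP27A. These shares do not depend on how a library is scaled, and LrpprcP27A lay below LrpprcWT, by a narrow margin for replicate 1. *Tgfb3* took 58.7% to 61.1% of the sum in LrpprcWT and 61.0% to 66.5% in LrpprcP27A, with overlap between the groups. The ligand shares and their values are a description, chosen after the levels had been seen.

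**Figure D2:**
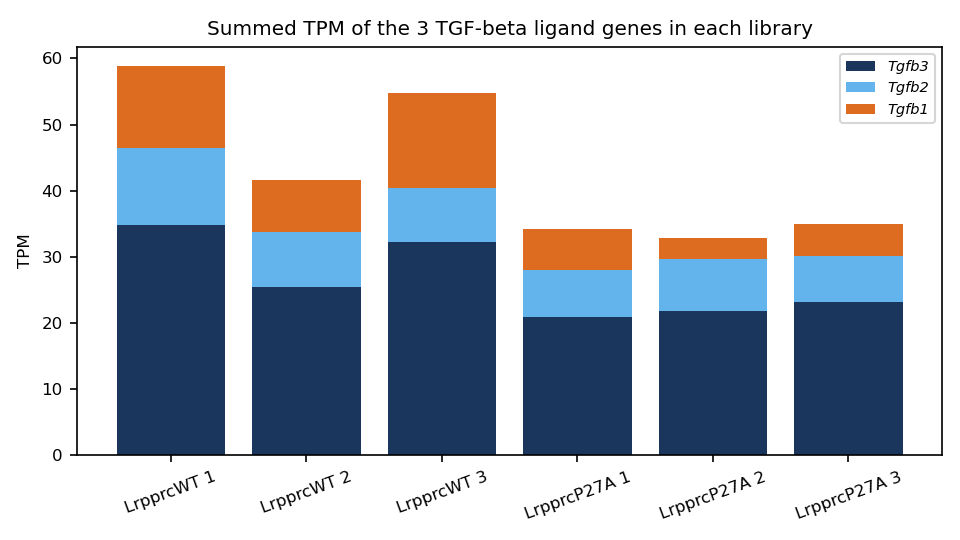
Summed TPM of the 3 ligand genes (vertical axis, from 0) in each of the 6 muscles, with Tgfb3, Tgfb2 and Tgfb1 stacked. The sum is 41.7 to 58.8 TPM in LrpprcWT and 32.8 to 35.0 TPM in LrpprcP27A, and Tgfb1 is 18.9% to 26.4% of it in LrpprcWT and 9.88% to 18.3% in LrpprcP27A.

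The type II receptor *Tgfbr2* (chr9:115913361-116004800, − strand) was at 19.5, 11.6 and 16.8 TPM in LrpprcWT and at 9.39, 5.85 and 8.37 TPM in LrpprcP27A. Every LrpprcP27A muscle was below every LrpprcWT muscle, and replicate 2 was the lowest of both groups. The mean fell by 50.8%, from 16.0 ± 4.04 to 7.87 ± 1.82 TPM. Its log2 fold change was −0.93 (SE 0.218, limma adjusted p = 0.0256). On the median-of-ratios scale its value was −0.59 (adjusted p = 0.0586, and 0.00821 with the replicate block).

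The type I receptor *Tgfbr1* (chr4:47353134-47414931, + strand), also known as ALK5, was at 8.96, 5.41 and 8.15 TPM in LrpprcWT and at 4.83, 5.89 and 5.76 TPM in LrpprcP27A. The groups overlapped, since LrpprcWT replicate 2 lay within the LrpprcP27A range, and 2 of 3 pairs were lower. *Tgfbr1* had a log2 fold change of −0.37 (SE 0.185, limma adjusted p = 0.143), which was −0.041 (adjusted p = 0.842) on the median-of-ratios scale.

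*Ltbp1* (chr17:75312519-75699507, + strand), whose product binds latent ligand covalently and anchors it in the matrix, was at 4.76, 2.78 and 3.84 TPM in LrpprcWT and at 2.29, 1.70 and 2.24 TPM in LrpprcP27A. The groups were separate, with a log2 fold change of −0.62 (SE 0.184, limma adjusted p = 0.0417). On the median-of-ratios scale its value was −0.35 (adjusted p = 0.107, and 0.0382 with the replicate block).

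*Ltbp2* (chr12:84829986-84923306, − strand), a matrix protein that associates with fibrillin but does not bind latent TGF-beta, had the lowest level of the 9 genes and the largest proportional difference between the groups. It was at 1.53, 0.618 and 1.39 TPM in LrpprcWT and at 0.337, 0.0561 and 0.0870 TPM in LrpprcP27A, and the groups did not overlap. The mean was 86.4% lower in LrpprcP27A, at 0.160 ± 0.154 against 1.18 ± 0.492 TPM. Its mean over the 6 libraries was under 1 TPM, so that it was not among the 11611 genes tested. In a fit without the filter its log2 fold change was −0.89 (SE 0.190, limma adjusted p = 0.0646, and 0.0269 with the replicate block). TPM keeps no depth, so no counting error can be given, and at such levels the scale of TPM + 1 understates the change.

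*Ltbp3* (chr19:5790932-5808669, + strand), which also binds latent ligand, was the most abundant per length of the 3 binding proteins described here. It was at 20.7, 17.7 and 22.8 TPM in LrpprcWT and at 14.0, 14.1 and 14.9 TPM in LrpprcP27A. A further binding protein, *Ltbp4*, was more abundant, with means of 68.4 and 36.7 TPM in LrpprcWT and LrpprcP27A. The LrpprcP27A muscles again lay close together and below LrpprcWT. For *Ltbp3* a log2 fold change of −0.47 resulted (SE 0.127, limma adjusted p = 0.0342). Its median-of-ratios value was −0.12 (adjusted p = 0.311), with groups that still did not overlap.

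*Smad7* encodes the inhibitory Smad that TGF-beta induces and that blocks the type I receptor. It was at 6.13, 4.16 and 5.997 TPM in LrpprcWT and at 5.44, 4.01 and 5.05 TPM in LrpprcP27A. The groups overlapped widely, although each LrpprcP27A muscle was lower than the LrpprcWT muscle of the same number. A log2 fold change of −0.13 was found (95% interval −0.53 to 0.27, limma adjusted p = 0.547, exact permutation p = 0.5). On the median-of-ratios scale the value was 0.18 (adjusted p = 0.275), so that its direction depends on the scaling.

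**Figure D3:**
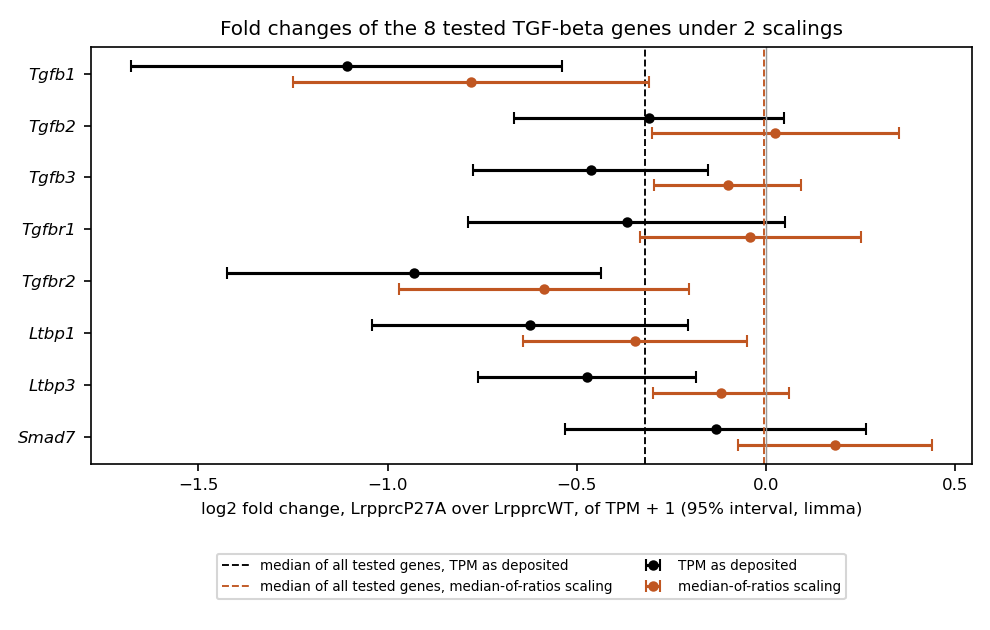
Log2 fold changes of TPM + 1 (horizontal axis, LrpprcP27A over LrpprcWT) of the 8 tested genes with 95% intervals from limma, for TPM as deposited (black) and after median-of-ratios scaling (orange); dashed lines are the medians of all tested genes, −0.32 and −0.0047. Tgfb1 and Tgfbr2 lie farthest to the left on both scales, and Smad7 lies to the right of both medians.

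Ordered by mean TPM, which is a level per length, the LrpprcWT muscles gave *Tgfb3*, *Ltbp3*, *Tgfbr2*, *Tgfb1*, *Tgfb2*, *Tgfbr1*, *Smad7*, *Ltbp1* and *Ltbp2*. Only the first and the last step of this order, from *Tgfb3* to *Ltbp3* and from *Ltbp1* to *Ltbp2*, separated neighbours whose ranges over 3 muscles did not overlap. In LrpprcP27A muscles *Tgfb1* stood after *Tgfb2*, *Tgfbr1* and *Smad7*. There the ranges of neighbours overlapped between *Tgfbr2* and *Tgfb2*, between *Tgfbr1* and *Smad7* and between *Smad7* and *Tgfb1*, and the other neighbours were separate.

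Ratios between genes of the same library do not depend on how that library is scaled, and 8 of them were compared. Each was tested by an exact two-sided permutation test, which cannot go below p = 0.1 with 3 against 3, so that no ratio could pass 0.05. The ratio of *Tgfbr2* to *Tgfbr1* was 2.18, 2.14 and 2.06 in LrpprcWT and 1.94, 0.993 and 1.45 in LrpprcP27A. It was nearly constant in LrpprcWT and lower in every LrpprcP27A muscle, with a difference of −0.59 in the mean log2 ratio (exact p = 0.1, adjusted p = 0.16). The ratio of *Smad7* to *Tgfb1* was 0.499, 0.528 and 0.414 in LrpprcWT and 0.870, 1.24 and 1.03 in LrpprcP27A. *Smad7* was thus higher relative to *Tgfb1* in every LrpprcP27A muscle, with a difference of 1.11 in the mean log2 ratio (exact p = 0.1, adjusted p = 0.16). Of the 2 genes, *Tgfb1* was called lower (log2 fold change −1.11, limma adjusted p = 0.0246) and *Smad7* was not (−0.13, adjusted p = 0.547). How many of all genes rose relative to *Tgfb1* was not tested.

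The other ligands were also higher relative to *Tgfb1* without overlap, *Tgfb2* by 0.93 and *Tgfb3* by 0.79 in the mean log2 ratio (exact p = 0.1, adjusted p = 0.16 each). The log2 fold change of TPM + 1 of *Tgfb1* was 0.79 below the median of all tested genes. A gene at that median would thus rise by about as much relative to *Tgfb1*, so that these rises are not particular to the ligands. *Ltbp2* was lower relative to *Tgfb1*, with a difference of −1.94 (exact p = 0.1, adjusted p = 0.16) that turned to 0.22 when 1 TPM was added to both genes. The ratios of *Ltbp1* and *Ltbp3* to *Tgfb1* and of *Tgfb1* to *Tgfbr2* overlapped between the groups, with differences of 0.42, 0.77 and −0.25 (exact p = 0.2, adjusted p = 0.2 each). The sum of *Ltbp1*, *Ltbp2* and *Ltbp3* over the summed ligands was at 0.458, 0.506 and 0.511 in LrpprcWT and at 0.486, 0.483 and 0.493 in LrpprcP27A. The LrpprcP27A values of that ratio lay within the LrpprcWT range. The ratio is not one of all binding proteins. It leaves out *Ltbp4*, at a mean of 68.4 TPM in LrpprcWT beside 25.4 TPM for the sum, and includes *Ltbp2*, which does not bind latent ligand.

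**Figure D4:**
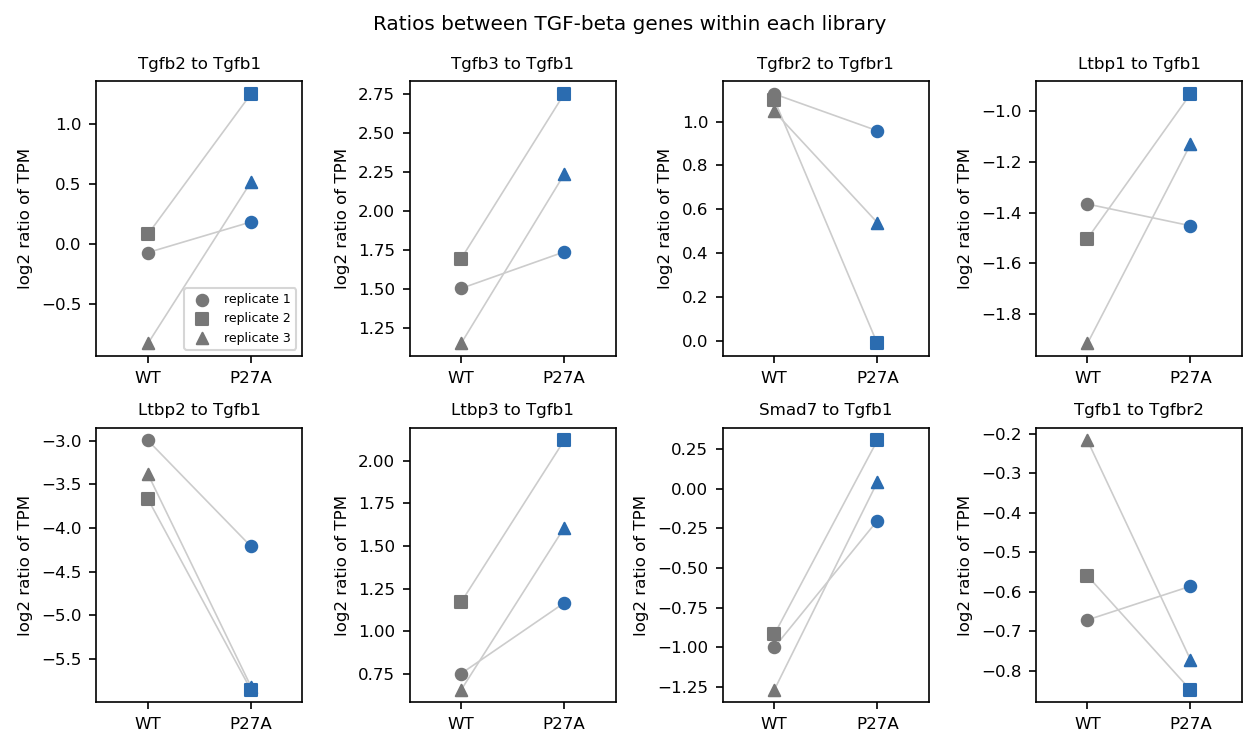
Log2 ratios of TPM between pairs of TGF-beta genes (vertical axes, each with its own range and not from 0) in the 3 LrpprcWT and 3 LrpprcP27A muscles; lines join the same replicate number. The LrpprcP27A muscles are all higher for Tgfb2, Tgfb3 and Smad7 to Tgfb1 and all lower for Tgfbr2 to Tgfbr1 and Ltbp2 to Tgfb1, and the groups overlap in the other 3.

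Among themselves the genes varied unevenly. Over the 6 libraries, after median-of-ratios scaling, Pearson's r of log2 values was 0.976 between *Tgfbr2* and *Ltbp1* and 0.950 between *Tgfb1* and *Tgfbr2*. The highest r of *Smad7* with any of the other tested genes was −0.128, that of *Tgfb2* was 0.454 (with *Tgfb3*), and that of *Ltbp3* was 0.530 (with *Tgfb1*). These correlations include the difference between the groups. Of the genes with a mean of at least 5 TPM, those most like *Tgfb1* were *Sh3gl1*, *Cotl1* and *H2-Aa* (r = 0.997, 0.996 and 0.996). For *Tgfbr2* they were *Nkiras2*, *Fnbp1* and *Fndc1* (0.999, 0.997 and 0.996), and for *Ltbp1* *Pdcd10*, *Cyrib* and *Trim44* (0.994, 0.991 and 0.990). *Tgfb2* was most like *Mef2c*, *Trp53bp2* and *Tbce* (0.985, 0.974 and 0.970), and *Tgfb3* most like *Naa30*, *Sacm1l* and *Ube2v2* (0.986, 0.979 and 0.969). *Tgfbr1* was most like *Stag2*, *Ythdf1* and *Nipbl* (0.982, 0.979 and 0.978), *Ltbp3* most like *Ppp1r27*, *Kdelr1* and *Otud1* (0.978, 0.977 and 0.975), and *Smad7* most like *Marchf8*, *Rnf13* and *Timm21* (0.996, 0.987 and 0.980). With 6 points and about 7081 genes searched for each, such values are a description only.

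Of 72 other genes of the pathway, 64 were tested. Of the 64, 34 were lower in LrpprcP27A and 0 higher (limma, adjusted p under 0.05), beside 23.3% and 1.34% of all tested genes. Their median log2 fold change was −0.78. After median-of-ratios scaling 15 were lower and 3 higher, beside 6.03% and 5.25%, with a median of −0.48. For storage and activation of latent ligand, 10 of 18 tested genes were lower and 0 higher, with a median of −0.74, beside 23.3% of all tested genes lower. Of the 18, 3 were lower on the median-of-ratios scale, beside 6.03%. The matrix metalloproteinases *Mmp14* and *Mmp2*, of which the former activates the latter at the cell surface, had log2 fold changes of −1.61 (limma adjusted p = 0.0175) and −1.48 (adjusted p = 0.0154). *Mmp2* went from 89.6 ± 24.5 to 31.9 ± 11.1 TPM. *Thbs1*, the thrombospondin that activates latent TGF-beta, was at 65.0, 11.8 and 59.2 TPM in LrpprcWT and at 11.2, 16.2 and 21.9 TPM in LrpprcP27A. Its groups overlapped at LrpprcWT replicate 2, and its adjusted p was 0.137, or 0.0047 with the replicate block.

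Of the co-receptors and decoy receptors, 1 of 4 tested genes was lower, or 4 of 4 with the replicate block, and 0 were higher. Of all tested genes, 23.3% were lower, or 48.4% with the replicate block. *Cd109*, a co-receptor that limits signalling, had a log2 fold change of −1.25 (limma adjusted p = 0.0345). *Eng* (endoglin), *Tgfbr3* (betaglycan) and *Acvrl1* (the endothelial type I receptor ALK1) had values of −0.61, −0.56 and −0.46, with adjusted p of 0.084, 0.0635 and 0.155 that became 0.000517, 0.00379 and 0.00672 in the blocked fit. *Bambi*, a decoy receptor, was at 1.09 to 1.53 TPM in LrpprcWT and 0.361 to 0.663 TPM in LrpprcP27A, below the filter. After median-of-ratios scaling 0 of the 4 were called, or 1 with the block, beside 6.03% and 15.8% of all tested genes called lower.

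Of the 4 genes for Smads that carry the signal and their adaptor, 0 were called by limma in either direction, and 1 was higher at an unadjusted p under 0.05. *Smad3* was at 40.3, 35.8 and 46.9 TPM in LrpprcWT and at 34.0, 42.5 and 47.1 TPM in LrpprcP27A, and the groups overlapped over nearly their whole range. *Smad4*, the shared partner, had a log2 fold change of 0.035 (adjusted p = 0.837), and *Smad2* one of −0.27 (adjusted p = 0.185). *Zfyve9* (SARA), which presents Smad2 and Smad3 to the receptor, was higher in every LrpprcP27A muscle, as were 3.51% of all tested genes. Its log2 fold change was 0.35 (adjusted p = 0.0512, and 0.0264 with the block, where 2.69% of all tested genes were called higher). On the median-of-ratios scale it was 0.71 (adjusted p = 0.0263), and there *Smad4* was called higher too, at 0.39 (adjusted p = 0.0463). On that scale 5.25% of all tested genes were called higher.

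Of the Smad inhibitors and turnover genes, 2 of 10 tested were lower and 0 higher, beside 23.3% and 1.34% of all tested genes. The 2 were *Tgif1*, a corepressor of Smads (log2 fold change −0.93, limma adjusted p = 0.0476), and *Pmepa1*, a feedback inhibitor induced by TGF-beta (−0.90, adjusted p = 0.0381). *Skil* (SnoN), a further induced corepressor, had −0.86 (adjusted p = 0.0627, and 0.00119 with the block). On the median-of-ratios scale 0 of the 10 were lower and 1 was higher, beside 6.03% and 5.25% of all tested genes.

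Of the 4 extracellular proteoglycans that bind TGF-beta, 3 were lower and 0 higher, beside 23.3% and 1.34% of all tested genes. *Aspn* (asporin), *Bgn* (biglycan) and *Dcn* (decorin) had log2 fold changes of −1.71, −1.53 and −0.69 (limma adjusted p = 0.0167, 0.0168 and 0.0366). *Fmod* (fibromodulin) ranged from 5.43 to 29.2 TPM in LrpprcWT and from 7.91 to 34.0 TPM in LrpprcP27A, and its log2 fold change of −0.06 (SE 0.635, adjusted p = 0.941) changed sign with the scaling. *Dcn* was not called after median-of-ratios scaling (−0.32, adjusted p = 0.229).

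Of the genes that TGF-beta is known to induce, 18 of 24 tested were lower and 0 higher, beside 23.3% and 1.34% of all tested genes. The median log2 fold change of the 24 was −1.33. On the median-of-ratios scale 10 were lower and 0 higher, beside 6.03% and 5.25%. *Postn* (periostin) was at 83.3, 25.7 and 59.1 TPM in LrpprcWT and at 10.6, 2.77 and 4.99 TPM in LrpprcP27A. Every LrpprcP27A muscle was below every LrpprcWT muscle, and the log2 fold change was −3.00 (SE 0.472, limma adjusted p = 0.0126). The collagen genes *Col1a1* and *Col3a1* fell from 423 ± 87.3 to 98.3 ± 57.1 TPM and from 512 ± 148 to 120 ± 56.1 TPM (SD, n = 3), with log2 fold changes of −2.22 and −2.14 (adjusted p = 0.0124 and 0.0116). Genes of this list are also expressed by fibroblasts and other cells without TGF-beta, and the list was drawn up with earlier results of these libraries known, so that their direction is not independent evidence about the pathway.

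**Figure D5:**
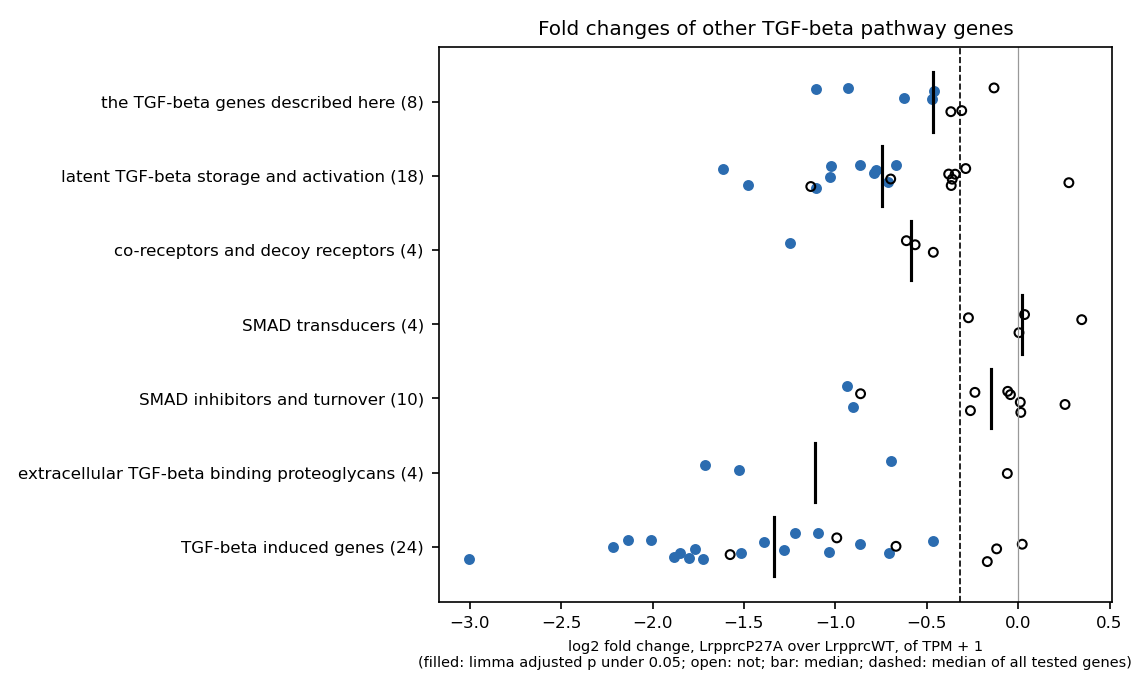
Log2 fold changes of TPM + 1 (horizontal axis, LrpprcP27A over LrpprcWT) of the tested genes of the pathway by list, with the number tested in brackets; filled points passed the limma test, bars are list medians, and the dashed line is the median of all tested genes, −0.32. The induced genes lie farthest to the left, with a median of −1.33, and the Smad transducers lie around 0.

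Markers of several cell types other than myofibres were lower too, and in whole muscle fewer cells of a type and less RNA per cell cannot be told apart. All 8 macrophage markers were lower (limma), with a summed level of 141 to 317 TPM in LrpprcWT and 47.0 to 111 TPM in LrpprcP27A and a median log2 fold change of −1.26. Of 8 fibroblast markers, 6 were lower, with sums of 270 to 455 and 139 to 212 TPM and a median of −1.05. Of 4 satellite cell markers 3 were tested and all 3 were lower, with sums of 6.61 to 10.5 and 3.02 to 4.16 TPM (median −0.87), and of 4 tenocyte markers 3 were tested and 1 was lower, with sums of 88.1 to 137 and 34.0 to 83.1 TPM (median −1.05). Endothelial markers (6 tested, 2 lower, 148 to 266 and 109 to 150 TPM, median −0.54) and mural cell markers (6 tested, 2 lower, 210 to 288 and 175 to 224 TPM, median −0.38) had sums that overlapped between the groups. The background of these counts is the 23.3% of all tested genes called lower. Beside 6.03% of all tested genes on the median-of-ratios scale, 2 of 8 macrophage, 4 of 8 fibroblast and 2 of 3 satellite cell markers were lower, and 0 of the tenocyte, endothelial and mural cell markers. The part of these cells in the levels of the TGF-beta genes was not tested.

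None of the tested markers of neutrophils (4), Schwann cells (3), platelets (2) or adipocytes (2) was called by limma at an adjusted p under 0.05. Of all tested genes, 23.3% were called lower. Without adjustment 1 neutrophil and 1 platelet marker were lower, beside 44.2%. The summed levels of these 4 cell types overlapped between the groups, at 34.5 to 56.5 and 25.1 to 40.2 TPM for neutrophils and 19.4 to 38.8 and 17.5 to 36.3 TPM for Schwann cells. For platelets, whose granules hold TGF-beta, they were 13.3 to 30.8 and 9.17 to 16.3 TPM, and for adipocytes 6.81 to 21.0 and 13.0 to 27.6 TPM. The medians of the log2 fold changes were −0.45, −0.20, −0.34 and 0.36 in the same order. T cell markers summed to under 1 TPM in every library, with *Trac* at 0 in all, and none was tested. Of 8 fast myofibre markers, which showed the tissue to be muscle at 112230 to 135232 TPM in sum, 1 was lower and 1 higher, with a median of −0.05. The shares of all tested genes were 23.3% lower and 1.34% higher.

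The mitochondrial genome took 36.0% to 45.2% of TPM in LrpprcWT and 44.2% to 46.1% in LrpprcP27A, with overlap between the groups. The ribosomal RNA locus *Rn18s-rs5* was at 8874 to 17614 TPM in LrpprcWT and 37023 to 44435 TPM in LrpprcP27A, without overlap. When both were left out and the rest was rescaled, 0 of the 8 TGF-beta genes were called by limma, against 5.67% of all tested genes called lower, and 5 were lower at an unadjusted p under 0.05, against 26.7%. Their part in the differences was otherwise not tested. *Lrpprc* itself, endogenous and electroporated together, was at 35.1, 37.0 and 75.2 TPM in LrpprcWT and 26.9, 29.7 and 26.0 TPM in LrpprcP27A. Its log2 fold change was −0.72 (limma adjusted p = 0.0652, and 0.00243 with the replicate block). On the median-of-ratios scale it was −0.36 (adjusted p = 0.331, and 0.245 with the block). By qRT-PCR the study reported similar *Lrpprc* mRNA levels after either plasmid. The TPM values cannot tell the plasmids apart.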

How the data were processed

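Reads of the 6 libraries were filtered by quality and length and mapped to GRCm39 by the authors with CLC Genomics Workbench, and the deposited values are TPM of 41709 genes without further scaling between libraries. Depth and counting error are unknown, since TPM keeps neither. Genes with a mean of at least 1 TPM (11611) were compared on log2(TPM + 1) with limma 3.58.1 in R 4.3.3 (empirical Bayes with trend, Benjamini-Hochberg adjustment, threshold 0.05). Exact two-sided permutation tests compared the mean TPM of single genes, in R, and the mean log2 ratios, in SciPy 1.17.1. The 8 ratios were adjusted together. The fit was tried on simulated data with independent noise. These had no pairing and no shift of all genes, so that the trial does not cover those features of the libraries. Positions come from GENCODE and upstream sequences from RefSeq.

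The replicate number was also fitted as a block. Same-numbered muscles deviated together (correlations of 0.363, 0.528 and 0.356), and the study describes contralateral muscles, although it does not state that a number is a mouse. The library titles carry matching numbers in both groups. If a number is a mouse, the main fit, which has no block, leaves this pairing out and treats the 6 muscles as independent. The limma p-values rest on the spread between these 6 muscles, moderated over all tested genes. With the block they rest on the spread left after the replicate number is fitted.

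The genes, the pathway and marker lists and the tests were chosen with earlier results of these data known. Named were the 9 genes, *Lrpprc*, and the 3 largest changes of each pathway list. Also named were all tested genes of lists of up to 5 genes and the 3 genes most like each tested gene. *Bambi*, *Ltbp4* and *Rn18s-rs5* were added after their values were seen. Alternatives tried were a pseudocount of 0.1, no filter, a filter at a mean of 5 TPM, no trend, the Kruskal-Wallis test, the block, median-of-ratios and quantile scaling, rescaling without the mitochondrial genome and ribosomal RNA, and each library left out.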

Additional observations from a re-analysis of the deposited data

How the results depend on the processing

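The number of TGF-beta genes called lower in LrpprcP27A (5 of 8) was 5 with a pseudocount of 0.1 (23.8% of all tested genes) and with the replicate block (48.4%). With a mean of at least 5 TPM it was 4 of 7, since *Ltbp1* was not tested, beside 1560 of all 7082 genes tested. Without the trend it was 4 of 8 (22.6%). It was 1 after median-of-ratios scaling (6.03%) and 3 with the block as well (15.8%). It was 0 of 9 without the filter on low values (0.196% of all genes tested) and 0 with the Kruskal-Wallis test (0%). It was also 0 after quantile normalization (4.46%) and after rescaling without the mitochondrial genome and ribosomal RNA (5.67%). The counts at an unadjusted p under 0.05 were 6, 6, 2 and 5 in this order, beside 31.1%, 47.6%, 14.6% and 26.7% of the genes tested. With 1 library left out the number called at an adjusted p under 0.05 was 0 to 6. In fits chosen after seeing the data, all without the filter, it was 5 in the blocked fit, 0 on the median-of-ratios scale and 3 with both. No alternative called any of these genes higher; without adjustment 1 was higher after quantile normalization. Without the filter 21450 genes were adjusted for, and the unadjusted limma p of *Tgfb1* was also larger, at 0.0056 against 0.0018. The Kruskal-Wallis test cannot pass with 3 against 3. The causes of the other losses, that without the filter included, were not tested. On the deposited scale with the filter, the block changed no call of the 8 tested genes. It raised the genes called lower among all tested from 2705 to 5619. On the median-of-ratios scale the block raised the calls from 1 to 3 of 8, and without the filter from 0 to 5 of 9. Of these 5, *Ltbp2* was fitted only without the filter (limma adjusted p = 0.0269 with the block against 0.0646).

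The log2 fold change turned positive for *Tgfb2* (0.026 after median-of-ratios scaling, 0.066 after quantile normalization), *Tgfbr1* (0.020, quantile), *Smad7* (0.18 median-of-ratios, 0.27 quantile, 0.029 rescaling) and *Smad2* (0.021 and 0.13), and for *Fmod* (0.28 under both, 0.12 rescaling, and −0.79 to 0.40 with 1 library left out). It turned negative with 1 library left out for *Smad3* (−0.10 to 0.13) and *Smad4* (−0.065 to 0.14). These scalings move the median of all genes from −0.32 to −0.0047 (median-of-ratios), 0.038 (quantile) and −0.175 (rescaling). *Tgfb1*, *Tgfb3*, *Tgfbr2*, *Ltbp1* and *Ltbp3* were negative under every setting that gave them a value. Median-of-ratios scaling took the call of all but *Tgfb1* (adjusted p = 0.0499), and the other scalings took all 5 (*Tgfb1* 0.0576 quantile, 0.0578 rescaling). With 1 library left out, the adjusted p of *Tgfb1* lay between 0.00477 and 0.114. The ratio of *Ltbp2* to *Tgfb1* reversed with 1 TPM added (0.22), and the other ratios kept their direction. *Ltbp2*, under 1 TPM in every LrpprcP27A muscle, is the value that unknown depth limits most.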
